A study of Mus musculus with 5 samples.

Results

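The barcodes described here are those richest in mitotic transcripts in each of 5 single-cell RNA libraries of a mouse embryonic stem cell line. In each library, barcodes were ranked by the share of their unique molecular identifiers (UMIs) that fell in 14 genes used in mitosis (Top2a, Mki67, Cenpf, Cenpe, Ube2c, Ccnb1, Ccnb2, Cdc20, Hmmr, Aurka, Plk1, Kif11, Tpx2 and Bub1b), and the highest 10% were taken as mitotic-rich. This gave 4906 of the 49074 barcodes kept, out of 50000 in the matrices. How 10000 barcodes per library came to be chosen was not given in the sources used here, and whether each barcode is a single cell was not settled, so values are given per barcode. Members were selected on the measured UMIs of the 14 genes alone. They were set against the 8055 barcodes with 0 UMIs of the 14 genes, called mitotic-free, in the same library. The 14 genes chose the barcodes, so their values are given as a description, and the tests below use the other genes only. The exception is Top2a, tested once below with barcodes chosen anew without it.

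All libraries came from REX-1 RFP cells, a reporter line whose red fluorescent protein is driven by the Rex1 promoter (Rex1 is the gene Zfp42, a naive pluripotency marker), and all were cultured for 72 h. ND was grown without leukaemia inhibitory factor (LIF), the cytokine that keeps mouse embryonic stem cells undifferentiated, and NS with it. The 3 sorbitol libraries were grown with LIF and 200, 250 or 300 mM sorbitol, an osmolyte that makes the medium hyperosmotic. Each condition is 1 library, so no difference between conditions has a replicate check, and condition and library cannot be told apart.

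Cells entering mitosis activate the kinase Cdk1 with its cyclins, condense their chromosomes, build a spindle from microtubules and motor proteins, attach chromosomes to it at kinetochores, and divide by cytokinesis. Many genes of these steps are transcribed late in the cell cycle. Their promoters often carry a CCAAT box, bound by NF-Y, and a cell cycle genes homology region (CHR), the element bound by the DREAM and MuvB complexes. Mouse embryonic stem cells cycle rapidly, with short gap phases.

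The 5 matrices held 8483612 UMIs in ND, 22158653 in NS, and 9230639, 9766705 and 8404105 at 200, 250 and 300 mM sorbitol. Mitotic-rich barcodes numbered 924 in ND, 1000 in NS, and 998, 1000 and 984 over the sorbitol doses. Mitotic-free barcodes numbered 1639 in ND, 142 in NS, and 1973, 1713 and 2588 over the doses. The small number in NS goes with its depth, a median of 2135 UMIs per kept barcode against 801 to 939 in the other 4 libraries. Pairs of libraries shared 34 to 54 barcode sequences, and 441 of 49558 distinct sequences occurred in 2 or more libraries. Within libraries the 2 classes were close in depth. The median number of UMIs outside the 14 genes was 816 in mitotic-rich and 813 in mitotic-free barcodes of ND, 2095 and 2056 in NS, 882 and 876 at 200 mM, 925 and 916 at 250 mM, and 775 and 792 at 300 mM.

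The values that chose the barcodes were low. A mitotic-rich barcode held a median of 5 UMIs of the 14 genes in ND (range 4 to 9), 10 in NS (8 to 22), and 4 (3 to 10), 5 (4 to 11) and 4 (3 to 9) at 200, 250 and 300 mM sorbitol. The last barcode inside the 10% stood at 45.8 UMIs of the 14 genes per 10000 UMIs in ND, 38.9 in NS, and 36.6, 41.1 and 37.9 over the doses. The first barcode outside stood at 45.8, 38.9, 36.6, 41.0 and 37.9 in the same order. No gap therefore separated members from the barcodes next to them, and in ND and at 200 and 300 mM the line ran through barcodes of equal share. Pooled over members, the 14 genes took 2.60 times their share of the whole library in ND, 2.06 times in NS, and 2.61, 2.62 and 2.83 times at 200, 250 and 300 mM. Libraries differ in depth and in their share of the 14 genes, and the part of either in these values was not tested. The values therefore do not rank the libraries.

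To compare libraries at 1 depth, each kept barcode was thinned to 500 UMIs. The share of barcodes with at least 3 UMIs of the 14 genes was then 10.7% in ND, 11.7% in NS, and 6.91%, 8.29% and 5.90% at 200, 250 and 300 mM. Without thinning the same shares were 28.7%, 82.7%, 24.6%, 30.2% and 17.8%. If every barcode of a library had the library's own share of these transcripts, the binomial formula gives 9.85%, 10.9%, 6.55%, 7.67% and 5.26% at 500 UMIs. The share with 0 UMIs was 34.8% in ND, where the formula gives 33.4%, and 33.1% in NS, where it gives 31.7%. Over the doses it was 40.7%, 38.2% and 44.3%, where the formula gives 39.9%, 37.4% and 43.3%. The variance of these UMIs over barcodes was 1.07 times their mean in ND, 1.08 times in NS, and 1.04, 1.06 and 1.05 times over the doses. Top2a alone had a variance 1.02 times its mean in ND, 1.06 times in NS, and 1.002, 1.02 and 1.03 times over the doses. At 500 UMIs the counts thus spread only slightly more than UMIs drawn from a single profile. By this ratio Top2a ranked 474 of 3641 genes in ND and 70 of 3445 in NS. Over the doses it ranked 1872 of 3779, 632 of 3869 and 176 of 4009, so its rank varied widely between libraries. At full depth the variance of the 14-gene UMIs was 1.16 times the mean in ND, 1.52 times in NS, and 1.10, 1.20 and 1.12 times over the doses. These ratios also hold the spread of depth over barcodes, and libraries differ in depth. They are thus not on the scale of the thinned ratios. In NS 1.42% of barcodes then had 0 UMIs, where the formula gives 0.733%. In ND this share was 17.7%, where the formula gives 15.8%. Over the doses it was 19.8%, 17.1% and 26.3%, where the formula gives 18.6%, 15.1% and 24.8%. The barcodes are called rich in mitotic transcripts and not mitotic cells.

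**Figure D1:**
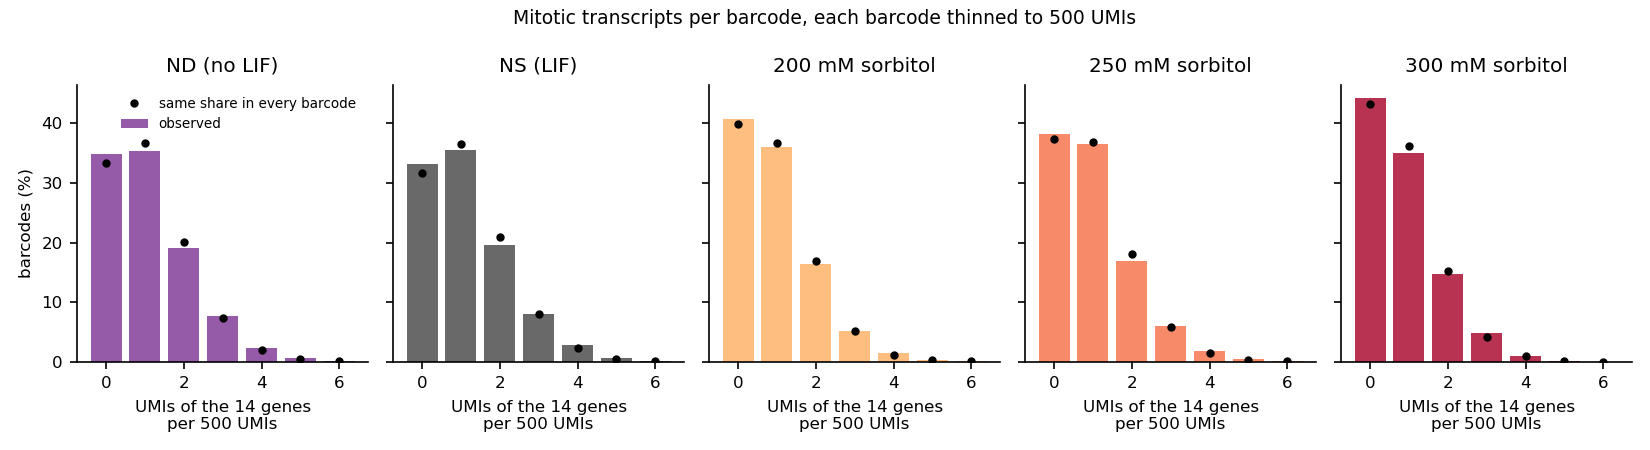
Share of barcodes (y axis, %) by the number of UMIs of the 14 genes (x axis) after thinning each barcode to 500 UMIs, 1 panel per library. Bars are the observed shares and black points those given by the binomial formula with the library's own share of the 14 genes in every barcode; at 0 UMIs bars exceed points in all 5 panels, as in ND with 34.8% observed and 33.4% by the formula.

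Top2a, the topoisomerase that untangles sister chromatids, supplied more of the members' 14-gene UMIs than any other of these genes. Its share was 39.1% in ND, 41.7% in NS, and 34.95%, 35.5% and 32.6% at 200, 250 and 300 mM sorbitol. At least 1 Top2a UMI was found in 90.3% of mitotic-rich barcodes of ND, 99.0% in NS, and 82.7%, 88.1% and 77.5% over the doses. Hmmr, which encodes a spindle-associated protein, supplied 5.75% in ND, 5.23% in NS, and 8.73%, 8.68% and 7.67% over the doses. Bub1b, the checkpoint protein BubR1, supplied 2.60% in ND, 2.02% in NS, and 3.65%, 3.44% and 4.65%. Ccnb1, the cyclin partner of Cdk1, supplied 7.01% in ND, 6.44% in NS, and 4.69%, 4.57% and 6.62%. Cdc20, the activator of the anaphase-promoting complex, supplied 3.37% in ND, 2.84% in NS, and 2.22%, 2.67% and 2.50%. Thus Top2a took a smaller and Hmmr and Bub1b a larger share in the 3 sorbitol libraries than in NS. Members are part of the library they were drawn from. Of 70 shares (14 genes in 5 libraries), 67 library values lay inside the exact binomial 95% interval of the mitotic-rich value. The other 3 were cyclin B genes with a lower share in members, namely Ccnb2 in NS (4.74% in members, 5.45% in the library) and at 250 mM (4.05% and 4.72%), and Ccnb1 at 200 mM (4.69% and 5.39%). Members supply part of each library value, so 3 of 70 cannot be set against a rate for counting error alone. The 3 are given as a description of the values that chose the members. Ccnb2 had a lower share in members of all 5 libraries, which was not tested. Top2a over all kept barcodes stood at 881 CPM in ND, 959 CPM in NS, and 662, 697 and 537 CPM over the doses (CPM, UMIs scaled to a common total).

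**Figure D2:**
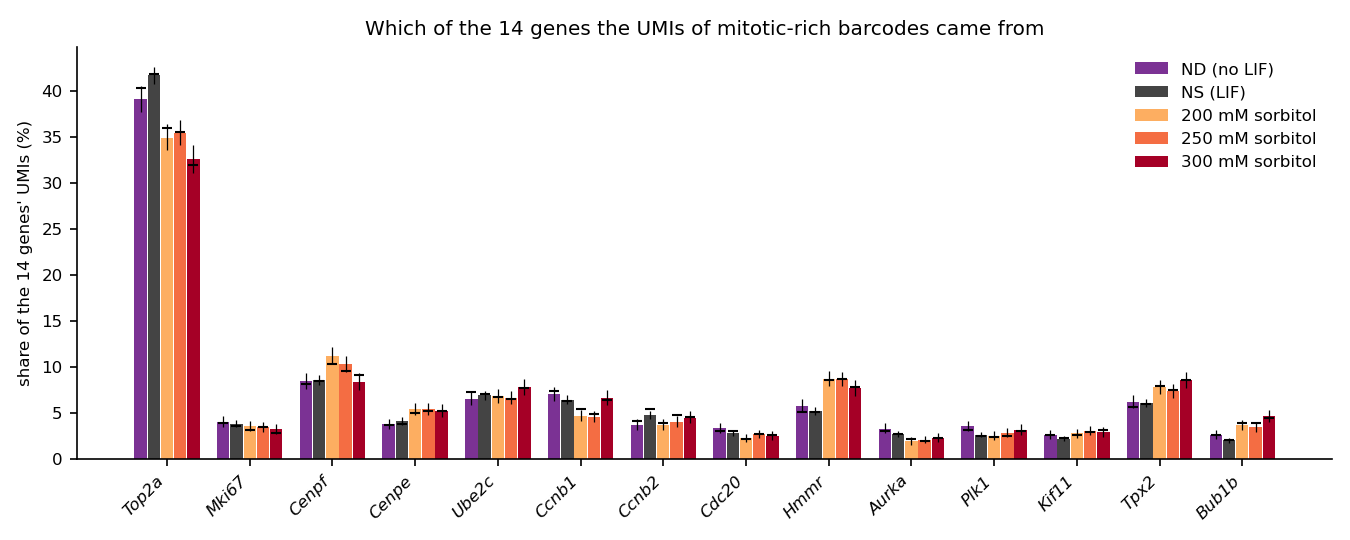
Share of the members' UMIs of the 14 genes that came from each gene (y axis, %), with 1 bar per library. Thin lines are exact binomial 95% intervals and black ticks the same share over all kept barcodes of that library; Top2a ranges from 32.6% to 41.7%.

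Genes outside the rule were tested on UMIs summed per library and class (10 sums), with edgeR's quasi-likelihood test, the library as a block and Benjamini-Hochberg adjustment over 8874 genes. The 5 pairs are 5 conditions, so the test asks whether a difference exceeds its spread over them. At an adjusted p under 0.05, 39 genes were higher in mitotic-rich barcodes (0.439% of those tested) and 14 were lower (0.158%). Among 158 mitosis genes outside the rule, 157 were tested, 12 of them were higher and 0 lower. By the unadjusted p under 0.05, 47 of them were higher and 4 lower, against 392 and 399 of all genes tested. Their median log2 fold change was 0.13, against -0.0049 for all genes tested, and 122 were positive and 35 negative. With no test, 37 of the 157 stood higher in mitotic-rich barcodes in all 5 libraries, where 5.43% of all genes did; 2 stood lower in all 5, where 4.01% did. Of the 12, DESeq2 called 4, did not call 3 and gave no adjusted p for 5, and 2 were called after thinning to 500 UMIs. Over all genes DESeq2 called 12 genes higher and 3 lower, all among these 39 and 14, so a list with 0 calls here has 0 there too. Counts of calls also depended on single libraries. Without the 250 mM library 15 genes were higher, 1 was lower and 7 mitosis genes were higher. Without ND 23 genes were higher, and without the 200 mM library 21 were higher and 7 lower.

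Summed over the 158 genes, the difference between the classes was small in each library. The log2 ratio of mitotic-rich over mitotic-free barcodes was 0.08 in ND (95% counting interval 0.05 to 0.11), 0.27 in NS (0.22 to 0.31), 0.09 at 200 mM (0.06 to 0.12), 0.16 at 250 mM (0.13 to 0.19) and 0.10 at 300 mM (0.07 to 0.13). When barcodes were thinned to 500 UMIs before they were chosen, the same ratios were 0.05, 0.10, 0.07, 0.09 and 0.06. Thinning also changed the classes, since mitotic-free barcodes of NS then numbered 3310 in place of 142. At full depth against all other barcodes, the ratio was 0.05 in ND, 0.14 in NS, and 0.07, 0.11 and 0.08 over the doses.

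The spindle list held 5 of the 12 genes called, out of 38 tested. Nusap1 (ENSMUSG00000027306; GRCm38 chromosome 2, 119618298 to 119651244), which binds and stabilises spindle microtubules near chromatin, had the highest fold change among the genes named by rule. It stood at 277 CPM in mitotic-rich and 189.7 CPM in mitotic-free barcodes of ND, 317 and 129.8 CPM in NS, 178 and 162 CPM at 200 mM, 227 and 139 CPM at 250 mM, and 204 and 119 CPM at 300 mM. Mitotic-rich barcodes were higher within all 5 libraries, least at 200 mM, where the 95% counting interval of the ratio included no difference. The fitted log2 fold change was 0.60 (SE 0.07), with an adjusted p of 2.26e-13.

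Kif2c, a kinesin that depolymerises microtubules at centromeres, stood at 69.8 CPM in mitotic-rich and 44.5 CPM in mitotic-free barcodes of ND, 70.2 and 39.9 CPM in NS, 64.7 and 64.7 CPM at 200 mM, 72.2 and 38.9 CPM at 250 mM, and 65.0 and 49.0 CPM at 300 mM. It was level at 200 mM and higher in the other 4 libraries (log2 fold change 0.47, SE 0.12, adjusted p 0.0235). That call was lost without ND, without NS and without the 250 mM library (log2 fold change 0.37 and adjusted p 0.41 without 250 mM). Kif20b, a kinesin of the late spindle, stood at 80.2 CPM in mitotic-rich and 53.3 CPM in mitotic-free barcodes of ND, 101 and 53.2 CPM in NS, 104 and 70.9 CPM at 200 mM, 116 and 90.1 CPM at 250 mM, and 73.8 and 59.8 CPM at 300 mM. It was higher in all 5 libraries (log2 fold change 0.47, SE 0.10, adjusted p 0.00211), and lost the call without the 200 mM library. Tuba1c, an alpha-tubulin, and Arl6ip1, an endoplasmic reticulum shaping protein, were also higher, with log2 fold changes of 0.36 (SE 0.09) and 0.27 (SE 0.05). Reads of alpha-tubulin genes can be hard to assign to 1 copy, so Tuba1c is uncertain; it was not called without ND, without 200 mM or without 250 mM.

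The cytokinesis list held 2 genes called of 9 tested. Prc1 (ENSMUSG00000038943; chromosome 7, 80294450 to 80316259), which bundles microtubules of the central spindle, stood at 138 CPM in mitotic-rich and 109 CPM in mitotic-free barcodes of ND, 190.5 and 103 CPM in NS, 157 and 120.3 CPM at 200 mM, 173 and 102 CPM at 250 mM, and 125 and 104 CPM at 300 mM. It was higher in all 5 libraries (log2 fold change 0.48, SE 0.08, adjusted p 7.66e-06). Kif20a, a kinesin that carries regulators to the central spindle, was higher in all 5 as well, with log2 ratios of 0.40 in ND, 0.95 in NS, and 0.39, 0.72 and 0.39 over the doses (log2 fold change 0.49, SE 0.12, adjusted p 0.0106). Its call was lost without the 250 mM library.

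Promoters of 4 of the 12 mitosis genes called are shown to compare their CHR and CCAAT letters, which are in capitals. They are the 4 with the highest fold changes among called mitosis genes with an entry in the RefSeq promoter table. Mitosis genes that were not called reached higher fold changes (log2 up to 0.75). The window runs from 250 bases before to 50 after the annotated start (GRCm38.p6).
Nusap1, chr2:119618048-119618347, plus strand: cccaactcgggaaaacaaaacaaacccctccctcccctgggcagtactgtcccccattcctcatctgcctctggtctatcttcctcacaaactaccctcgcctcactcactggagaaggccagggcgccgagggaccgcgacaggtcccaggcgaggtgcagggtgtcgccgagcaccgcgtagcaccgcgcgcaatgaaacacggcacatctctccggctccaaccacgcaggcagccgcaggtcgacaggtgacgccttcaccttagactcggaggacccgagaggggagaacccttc
Prc1, chr7:80294201-80294500, plus strand: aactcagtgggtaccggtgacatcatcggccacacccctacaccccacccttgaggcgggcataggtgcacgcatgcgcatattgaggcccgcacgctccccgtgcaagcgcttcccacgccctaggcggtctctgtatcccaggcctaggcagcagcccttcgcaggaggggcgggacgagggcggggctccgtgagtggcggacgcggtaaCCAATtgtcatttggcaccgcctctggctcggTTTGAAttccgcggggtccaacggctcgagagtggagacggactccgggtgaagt
Kif2c, chr4:117178723-117179022, minus strand: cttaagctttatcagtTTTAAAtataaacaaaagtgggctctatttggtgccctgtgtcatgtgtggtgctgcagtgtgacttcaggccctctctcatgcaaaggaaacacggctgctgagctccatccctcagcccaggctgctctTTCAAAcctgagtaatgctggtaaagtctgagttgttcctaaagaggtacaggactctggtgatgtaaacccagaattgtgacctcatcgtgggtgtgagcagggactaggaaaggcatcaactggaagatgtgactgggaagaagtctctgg
Kif20b, chr19:34922108-34922407, plus strand: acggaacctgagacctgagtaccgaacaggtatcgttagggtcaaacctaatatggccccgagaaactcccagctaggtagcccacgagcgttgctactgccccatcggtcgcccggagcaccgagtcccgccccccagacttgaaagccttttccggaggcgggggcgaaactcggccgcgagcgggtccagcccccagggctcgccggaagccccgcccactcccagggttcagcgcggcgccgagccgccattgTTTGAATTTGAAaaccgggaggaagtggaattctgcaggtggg
Both strands were searched. The CHR letters were TTTGAA, which reads as TTCAAA when it lies on the opposite strand, or else TTTAAA. The CCAAT box reads as ATTGG when it lies on the opposite strand. Prc1 held a CCAAT and a TTTGAA, Kif20b a pair of adjoining TTTGAA, Kif2c a TTTAAA and a TTCAAA, and Nusap1 none of them in this window. The Kif2c start in the RefSeq table lies inside the GENCODE gene (chromosome 4, 117159639 to 117182639), so a start further upstream is not covered. TTTGAA on either strand occurred in 43.3% of 127 tested mitosis genes outside the rule with an entry, in 11.3% of 7132 tested genes and in 18.1% of all 27025 promoters. CCAAT occurred in 62.2% of those mitosis genes, 40.1% of tested genes and 37.9% of all promoters. Of the 14 genes of the rule, 13 had an entry, and each of the 13 held a CCAAT and TTTGAA or TTTAAA. Among the 12 mitosis genes called, 9 had an entry, and 4 of these held TTTGAA. Such matches describe the letters and show no binding.

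Among kinases and regulators of mitotic entry, 2 of 19 tested genes were higher. Cdk1 (ENSMUSG00000019942; chromosome 10, 69335146 to 69352938), the kinase that drives entry, stood at 133 CPM in mitotic-rich and 103 CPM in mitotic-free barcodes of ND, 149 and 86.5 CPM in NS, 86.6 and 79.9 CPM at 200 mM, 99.4 and 59.9 CPM at 250 mM, and 95.02 and 82.4 CPM at 300 mM. It was higher within all 5 libraries (log2 fold change 0.39, SE 0.09, adjusted p 0.0133), and the call was lost without ND, without NS and without the 250 mM library. Cks2, a small Cdk1-binding subunit, was higher by a log2 fold change of 0.26 (SE 0.07, adjusted p 0.0325), a call that held in the absence of NS but of no other library.

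Incenp, the scaffold of the chromosomal passenger complex that carries Aurora B, was the 1 gene called of 4. It stood at 145 CPM in mitotic-rich and 107 CPM in mitotic-free barcodes of ND, 153 and 76.5 CPM in NS, 128 and 82.7 CPM at 200 mM, 116 and 109 CPM at 250 mM, and 135 and 99.4 CPM at 300 mM. It was higher in all 5 libraries and least so at 250 mM (log2 fold change 0.44, SE 0.09, adjusted p 0.00053). Sgo2a, the shugoshin that protects centromeric cohesion, was the 1 gene called of 8 in the spindle checkpoint and cohesion protection list. Its log2 ratio was 0.25 in ND, 0.54 in NS, and 0.40, 0.47 and 0.36 over the doses (log2 fold change 0.38, SE 0.08, adjusted p 0.000999). Smc4, a core condensin subunit, was the 1 gene called of 28 in the list of condensin, cohesin and mitotic chromatin. Its log2 ratio was 0.84 in NS and between 0.23 and 0.40 in the other 4 libraries (log2 fold change 0.35, SE 0.08, adjusted p 0.0024), and it was not called without the 250 mM library.

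**Figure D3:**
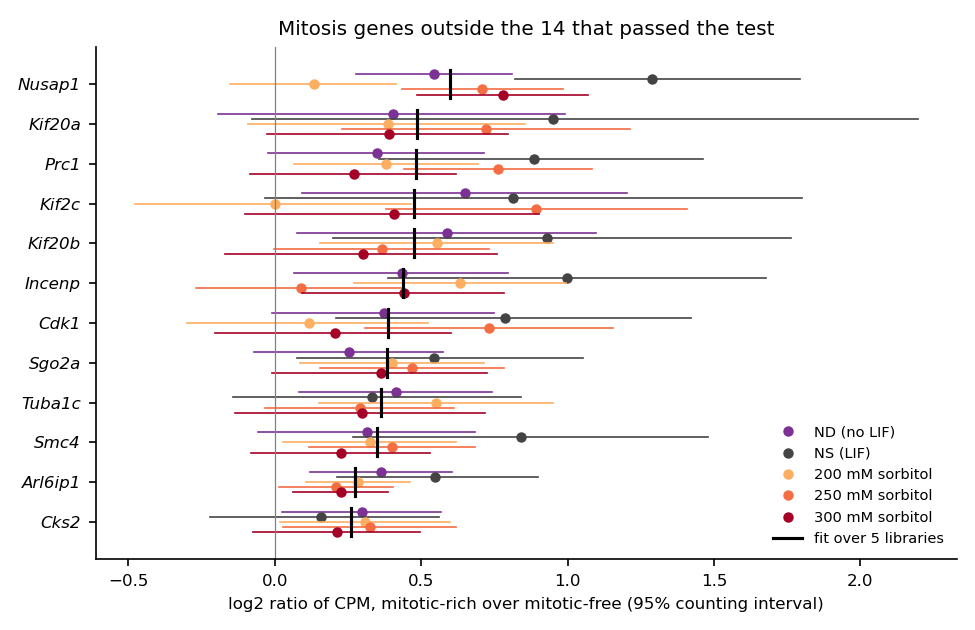
Log2 ratio of CPM, mitotic-rich over mitotic-free barcodes (x axis), for the 12 mitosis genes outside the rule that passed the test. Points are single libraries with 95% counting intervals, and black bars the fitted log2 fold change; Kif2c at 200 mM sits at 0.00 and the NS value of Nusap1 at 1.29.

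None of the 34 kinetochore genes tested passed, with a median log2 fold change of 0.14, 26 positive and 8 negative. Spc25, a subunit of the Ndc80 complex, had a value of 0.25 (SE 0.08, adjusted p 0.121). None of the 17 genes of the anaphase-promoting complex and its partners passed either (median 0.11). The same holds for 17 nuclear envelope genes (median 0.02), 47 S phase genes (median 0.02) and 18 G1 cyclins, Rb family genes and inhibitors (median 0.00). At the unadjusted p under 0.05, 5 kinetochore genes were higher and 0 lower, 2 and 0 of the anaphase-promoting complex list, 1 and 0 of the nuclear envelope list, 3 and 1 of the S phase list, and 0 and 2 of the G1 list. Of all 8874 genes tested, 392 were higher and 399 lower at that unadjusted level. Knl1, a kinetochore scaffold, had 9 UMIs in the 142 mitotic-free barcodes of NS.

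Of 13 tested replication-dependent histone genes, 1 was lower in mitotic-rich barcodes and 0 higher. The list's median log2 fold change was 0.09, 9 of the 13 were positive, and 2 stood higher in all 5 libraries. Hist1h2ap stood at 199.1 CPM in mitotic-rich and 220.3 CPM in mitotic-free barcodes of ND, 641 and 879 CPM in NS, 424 and 489 CPM at 200 mM, 297 and 385 CPM at 250 mM, and 474 and 523 CPM at 300 mM. It was lower within all 5 libraries (log2 fold change -0.28, SE 0.05, adjusted p 1.64e-05). Histone genes of this cluster are near-identical copies, and their poly(A) tails are short or absent, so this count is uncertain. Dnajc9, a histone chaperone, was lower in all 5 (log2 fold change -0.46, SE 0.11, adjusted p 0.0155), but not called without NS or without any 1 of the 3 sorbitol libraries. Ftl1-ps1, listed as a pseudogene of ferritin light chain and near-identical to it, had a log2 fold change of -0.11 (SE 0.03, adjusted p 0.00578) and lost the call without ND, without 200 mM and without 250 mM. Igf2 passed the test but was at or near 0 in ND and NS (0 and 1 UMIs in ND, 2 and 0 in NS, mitotic-rich given first), so no fold is given.

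**Figure D4:**
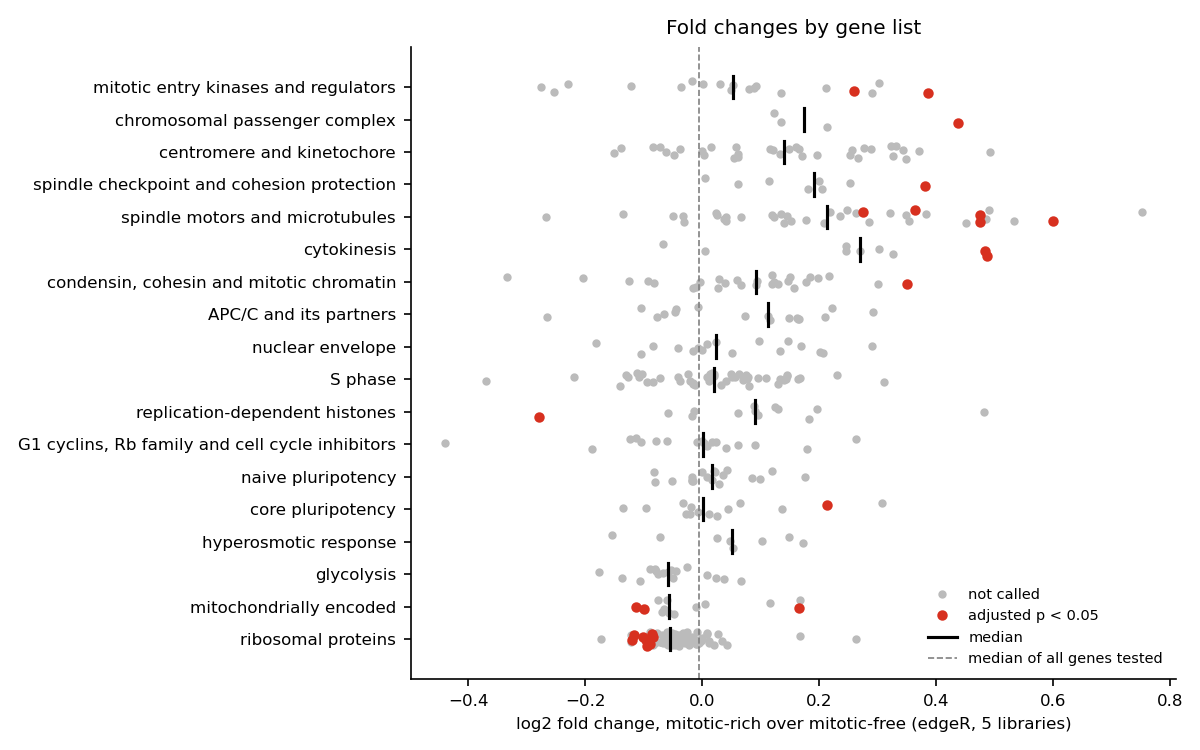
Log2 fold change of mitotic-rich over mitotic-free barcodes (x axis) for the genes of 18 lists. Grey points did not pass and red points passed an adjusted p of 0.05. Short bars are list medians and the dashed line is the median of all genes tested. Within the lists drawn, red points to the right of it lie mostly in mitosis lists, and 8 ribosomal protein genes lie to the left. Of all 39 genes called higher, 12 are in mitosis lists.

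Outside the mitosis lists, the nuclear RNAs Malat1 and Kcnq1ot1 were higher in mitotic-rich barcodes, 2 of 5 tested nuclear long non-coding RNAs. Of all genes tested, 0.439% were higher. Malat1 (ENSMUSG00000092341; chromosome 19, 5795690 to 5802672), an abundant RNA retained in nuclear speckles, took 1.34% of UMIs outside the 14 genes in mitotic-rich and 1.16% in mitotic-free barcodes of ND, 1.58% and 1.24% in NS, 2.53% and 2.17% at 200 mM, 2.42% and 2.04% at 250 mM, and 1.82% and 1.59% at 300 mM. It was higher in all 5 libraries (log2 fold change 0.23, SE 0.02, adjusted p 8.51e-22). Kcnq1ot1, antisense to Kcnq1 and therefore uncertain without a stated use of strand, had a log2 fold change of 0.23 (SE 0.05, adjusted p 0.0008). Neat1, another nuclear RNA, had -0.06 (SE 0.06, adjusted p 0.829).

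RNA classes that can vary with cell quality moved with the grouping. Mitochondrially encoded genes took 4.83% of UMIs in mitotic-rich and 5.10% in mitotic-free barcodes of ND, 3.76% and 4.14% in NS, 5.56% and 5.65% at 200 mM, 5.61% and 5.86% at 250 mM, and 6.11% and 6.17% at 300 mM. Ribosomal protein genes took 25.1% and 25.7% in ND, 27.7% and 29.4% in NS, 24.98% and 25.5% at 200 mM, 22.2% and 22.9% at 250 mM, and 21.1% and 21.4% at 300 mM, with mitotic-rich barcodes given first. The ribosomal protein share was lower in mitotic-rich barcodes in all 5 libraries. The mitochondrial share was lower in 4, while at 300 mM its log2 ratio of -0.012 had a 95% counting interval (-0.027 to 0.003) that included no difference. There the ratio was 0.0036 after thinning to 500 UMIs and 0.011 with the classes matched on Malat1. At 200 mM it was -0.017 (-0.036 to 0.0017) after thinning and 0.00043 with matching. Of 93 ribosomal protein genes tested, 8 were lower and 0 higher, with 83 negative values and a median of -0.06. Of all 8874 genes tested, 0.158% were lower and 0.439% higher, and 4558 values were negative. Many have near-identical pseudogenes, so single members are uncertain. Of 13 mitochondrially encoded genes, mt-Co1 (log2 fold change -0.10) and mt-Nd3 (-0.11) were lower and mt-Nd5 (0.17) was higher; none of the 3 was called without the 250 mM library. Of 17 other settings, mt-Co1 was called in 13, mt-Nd3 in 12 and mt-Nd5 in 2, and mt-Nd5 was also lost without ND, without NS and without 300 mM. With both classes matched on their Malat1 share, 11 genes were higher, 5 lower, and 7 of the 12 mitosis genes were still called. The log2 ratios of the mitosis sums were then 0.090 in ND, 0.27 in NS, and 0.092, 0.17 and 0.071 over the doses, close to those without matching except at 300 mM, and matching left 142 in place of 1000 mitotic-rich barcodes in NS. When genes of mitochondrial and ribosomal proteins were taken out of the table, all 12 were. Beyond these values, the part of RNA quality in the results was not tested.

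**Figure D5:**
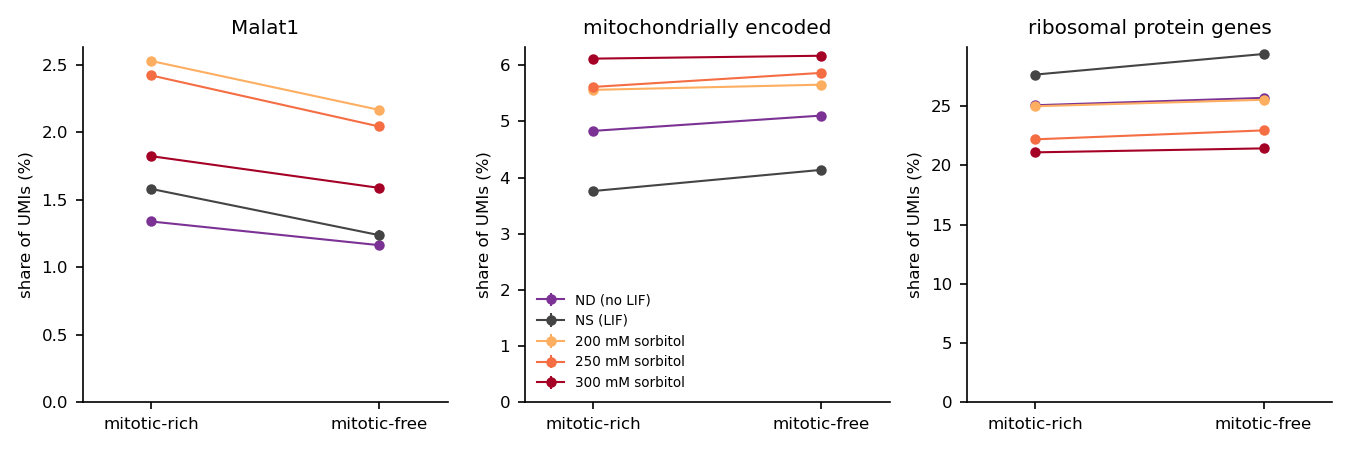
Share of UMIs outside the 14 genes (y axis, %) taken by Malat1, mitochondrially encoded genes and ribosomal protein genes in mitotic-rich (left) and mitotic-free (right) barcodes, with 1 line per library and 95% exact binomial intervals, mostly smaller than the points. Malat1 is higher and the ribosomal protein share lower in mitotic-rich barcodes of all 5 libraries; the mitochondrial share is lower in 4 and at 300 mM nearly level (6.11% and 6.17%).

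Among the other genes named by rule, Rsf1, a chromatin remodelling subunit, and Dhx9, an RNA and DNA helicase, were higher (log2 fold changes 0.42, SE 0.11, and 0.31, SE 0.06). Neither was called without the 250 mM library, and Rsf1 also not without ND or without 200 mM. Ncl (nucleolin, a nucleolar protein), chosen after its values were seen, was higher in all 5 libraries, with log2 ratios of 0.33 in ND, 0.44 in NS, and 0.28, 0.22 and 0.13 over the doses (log2 fold change 0.26, SE 0.03, adjusted p 1.09e-14). Of 14 core pluripotency genes, L1td1, an RNA-binding protein of pluripotent cells, was higher (0.21, SE 0.05, adjusted p 0.00227; not called without 250 mM). None of the 19 naive pluripotency genes passed, and 1 was higher at the unadjusted p under 0.05. Log2 fold changes were 0.03 (SE 0.04) for Zfp42, the gene whose promoter drives the reporter, 0.09 (SE 0.07) for Nanog, -0.02 (SE 0.06) for Pou5f1 and -0.01 (SE 0.04) for Sox2. Hspa8, a constitutive chaperone, was the 1 gene higher of 10 heat shock genes (0.11, SE 0.03, adjusted p 0.0234); its log2 ratio was 0.015 at 300 mM and 0.13 to 0.17 elsewhere, and it was not called without ND, without 200 mM or without 250 mM. None of the 8 hyperosmotic response genes tested passed, and 0 did at the unadjusted p under 0.05. Few markers of other cell types could be tested, at most 6 of a list, and none passed; 1 trophoblast gene was higher at the unadjusted p under 0.05. None of the 9 cleavage-stage genes reached the level needed for a test. No gene passed among 17 of glycolysis (median log2 fold change -0.06), 17 of nuclear-encoded oxidative phosphorylation (-0.03), 17 of the ATF4 response (-0.05), 16 of cholesterol synthesis (-0.06) and 14 p53 targets (-0.03). At the unadjusted p under 0.05, 0 and 4, 0 and 3, 0 and 2, 0 and 1, and 1 and 3 of them were higher and lower, in that order. The counts over all 8874 genes tested were 392 and 399.

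Rerunning the rule without Top2a, an alternative added after seeing the data, made Top2a itself a gene outside the rule. Barcodes rich in the other 13 genes then had 1005 CPM of Top2a, against 827 CPM in barcodes without them, in ND. The values were 1186 and 798 CPM in NS, 689.9 and 657 CPM at 200 mM, 847 and 641 CPM at 250 mM, and 621 and 518 CPM at 300 mM. Top2a was higher overall (log2 fold change 0.33, SE 0.03, adjusted p 6.15e-24), but at 200 mM the log2 ratio of 0.07 had a 95% counting interval (-0.059 to 0.199) that included no difference.

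Conditions were compared among mitotic-rich barcodes without a test, since each is 1 library, and all 4 comparisons share NS. Summed over the 158 mitosis genes outside the rule, the log2 ratio to NS was 0.05 in ND (95% counting interval 0.02 to 0.08), -0.15 at 200 mM (-0.18 to -0.12), -0.04 at 250 mM (-0.06 to -0.01) and -0.05 at 300 mM (-0.08 to -0.02). Scaling by the median of ratios shifted all ratios by -0.13, -0.19, -0.23 and -0.31, and gave -0.082, -0.34, -0.26 and -0.36. The sign for ND thus turned with the scaling, while the 3 sorbitol values stayed below 0 in mitotic-rich barcodes. At full depth, the CPM sum of the same genes in mitotic-free barcodes lay on the other side of NS. It stood at 14950 CPM in NS (95% counting interval 14520 to 15400). At 200 mM it was 15200 CPM (15020 to 15390), an interval that overlaps that of NS. It was 15750 CPM at 250 mM and 16270 CPM at 300 mM. The mitotic-free class of NS held 142 barcodes at full depth and 3310 when chosen after thinning to 500 UMIs. After thinning the sum in this class was 16120 CPM in NS, and 15420, 16180 and 16390 CPM over the doses. At 200 mM it then lay below NS, and at 250 mM it was nearly level. The side of NS in this class thus depended on depth.

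Single genes were counted past 1.5-fold, with at least 5 CPM in either library. In ND, 7 of the 158 mitosis genes were higher and 10 lower than in NS, where 18.5% and 13.6% of all genes were. At 200 mM 16 were higher and 30 lower (all genes 29.6% and 15.1%), at 250 mM 26 and 21 (29.6% and 13.4%), and at 300 mM 28 and 26 (34.6% and 14.3%). With median-of-ratios scaling the counts were 2 and 22 in ND (all genes 13.3% and 18.0%), 8 and 42 at 200 mM (22.2% and 21.2%), 11 and 36 at 250 mM (20.2% and 20.7%), and 7 and 46 at 300 mM (22.2% and 24.6%). All 3 doses share NS, and 8 mitosis genes were higher and 12 lower past 1.5-fold at all of them, 5.06% and 7.59% of the 158, against 15.4% and 5.87% of all genes. With median-of-ratios scaling 1 was higher and 23 lower, 0.633% and 14.6%, against 9.24% and 10.9% of all genes.

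The genes given next were chosen after their values were seen. Pbk, a mitotic kinase, was the 1 gene higher under both scalings. In mitotic-rich barcodes it stood at 25.3 CPM in NS and 65.8, 60.7 and 73.8 CPM at 200, 250 and 300 mM. In mitotic-free barcodes it stood at 9.98 CPM in NS and 51.7, 48.2 and 53.2 CPM over the doses. The mitotic-free class of NS held only 300508 UMIs outside the genes of the rule. Its Pbk value thus rests on very few UMIs, and the size of the gap in this class is uncertain. Hmgb2, a chromatin protein of proliferating cells, was among the 12 lower. It stood at 993 CPM in NS and 492, 509.7 and 593 CPM over the doses in mitotic-rich barcodes, and at 799 CPM in NS and 469.6, 480.3 and 544 CPM over the doses in mitotic-free barcodes. Spc24, a kinetochore subunit, stood at 152 CPM in NS and 68.0, 74.3 and 70.0 CPM over the doses in mitotic-rich barcodes, and at 153 CPM in NS and 56.8, 72.9 and 56.5 CPM over the doses in mitotic-free barcodes. Pbk thus lay above NS, and Hmgb2 and Spc24 below it, at all 3 doses. For Kpna2, an importin, the values were 80.8 CPM in NS and 32.9, 37.7 and 35.01 CPM over the doses in mitotic-rich barcodes, and 39.9 CPM in NS and 28.1, 27.8 and 20.3 CPM over the doses in mitotic-free barcodes. For these 4 genes the gap to NS was thus on the same side in both classes of barcodes, which come from the same libraries. For Pbk the mitotic-free side of this comparison rests on very few UMIs in NS, and for Kpna2 also on few. At full depth the CPM sum of the 158 mitosis genes was not on the same side in both classes. After thinning to 500 UMIs it was below NS in both classes at 200 mM. Of the 12 lower and the 8 higher genes, 5 each were past 1.5-fold at all 3 doses among mitotic-free barcodes as well.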

How the data were processed

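Raw UMI counts per gene and barcode were used as deposited by the authors, for 32285 genes in 5 libraries with 1 sample per condition. Cell Ranger 6.0.1 made them, per the file headers. The submitters' processing notes also list R 4.1.2, Seurat 4.1.1 and mm10, with no role stated. The labels' protocols name a Trizol lysis and a Lexogen 3' kit, which go with another kind of library than barcode matrices. Strand use, the annotation and the way 10000 barcodes per library were chosen were not given in the sources used here.

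A barcode was kept if it had 500 or more genes and no more than 20% mitochondrial UMIs. Doublets were not called; dropping the deepest 5% of barcodes was an alternative. Mitotic-rich and mitotic-free barcodes were defined per library as stated, and their UMIs summed without the 14 genes. The sums were tested with edgeR 4.0.16 (limma 3.58.1, R 4.3.3; TMM, filterByExpr, quasi-likelihood, library as block), with Benjamini-Hochberg adjustment over all genes tested; the code was tested on simulated data. DESeq2 1.42.0 was an alternative. Within a library, CPM and ratios carry exact 95% intervals that cover counting error only. Depth per library and barcode is given above. Thinning drew 500 UMIs per barcode (seed 7). Coordinates are from GENCODE M21 (GRCm38), and promoters from RefSeq.

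Named genes were the 12 highest and 10 lowest log2 fold changes among called genes with the same direction in 5 libraries and at least 50 CPM in the mean of either class, without mitochondrial, ribosomal protein and unnamed gene models (3 genes met this among the lower), up to 3 genes per list with the lowest adjusted p, and Zfp42, Nanog, Pou5f1 and Sox2. The barcode rule, the lists and the tests were chosen with earlier results of these data known. The library pairs the sums, since both classes come from the same library.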

Additional observations from a re-analysis of the deposited data

Results flagged for a closer look

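Each of 28 log2 ratios of mitotic-rich over mitotic-free barcodes was checked for a library far from the other 4, by Dixon's criterion for 5 values (critical value 0.71), which chance meets in about 1 of 20 such groups; 3 were met. Smc4, a condensin subunit, had a log2 ratio of 0.84 in NS, against 0.23 to 0.40 in the other libraries. Hspa8, a chaperone, had 0.015 at 300 mM sorbitol, against 0.13 to 0.17 elsewhere. Rpl41, a ribosomal protein gene, had -0.18 in NS, against -0.06 to -0.04 elsewhere. NS is the deepest library, and its mitotic-free class the smallest (142 barcodes). The part of either in these values was not tested.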

How the results depend on the processing

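Of 39 higher, 14 lower and 12 higher mitosis genes, edgeR called 13, 1 and 7 with no filter on low counts, and DESeq2 called 12, 3 and 4. Without the library block edgeR called 0 of each kind (52 higher and 45 lower at the unadjusted p under 0.05), because differences between libraries then count as spread. Matching depth left 24 higher genes, thinning to 500 UMIs 4, 2 and 2, and matching Malat1 (added after seeing the data) 11, 5 and 7, with 142 mitotic-rich barcodes of NS in place of 1000 and log2 ratios of the mitosis sums of 0.071 to 0.27, against 0.082 to 0.27 without matching. Lower genes numbered 8 with DESeq2's size factors in edgeR, 9 without the deepest 5%, 4 without mitochondrial and ribosomal protein genes, and 35 under the rule without Top2a (added). Leaving out 1 library gave 15 to 39 higher, 1 to 15 lower and 7 to 14 mitosis genes. Called genes that were tested again kept their sign under every setting, except 1 gene each with thinning and with Malat1 matching. Malat1 itself turned to -0.010 when matched on, by construction.

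Among mitotic-rich barcodes, the mitosis sums against NS (ND, then 200, 250 and 300 mM) were 0.085, -0.092, -0.0058 and -0.016 on the log2 scale after thinning, and -0.082 (reversed for ND), -0.34, -0.26 and -0.36 with median-of-ratios scaling. Without mitochondrial and ribosomal protein genes they were 0.018 in ND, -0.11 at 250 mM and -0.14 at 300 mM; the causes were not tested. Shares of barcodes with at least 3 UMIs of the 14 genes depend on depth: without thinning they were 28.7% in ND, 82.7% in NS, and 24.6%, 30.2% and 17.8% over the doses. With all barcodes of ND of at least 500 UMIs, its thinned share was 10%. With a few UMIs of the 14 genes per barcode, depth limits how well the classes are told apart.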
